A study of Mus musculus with 5 samples.

Results

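Macrophage marker genes were followed in brown adipose tissue (BAT) of cold-exposed mice. The group holds 10 genes (Adgre1, Cd68, Csf1r, Lyz2, Cd14, Itgam, Mrc1, Cd163, Ptprc and Trem2) of 52022 genes measured in all. They were listed by name, with earlier results of these data known. BAT RNA came from 3 ATF4 BKO mice and 2 wild-type (WT) mice, with 1 library per mouse. All 5 mice were males, as labelled, aged 10 to 12 weeks, on a C57Bl/6J background, and they were kept at 4 °C for 3 days before the tissue was taken. ATF4 BKO mice carried floxed Atf4 alleles (ATF4 fl/fl) and a transgene with cre recombinase under the Ucp1 promoter, so that the deletion was aimed at thermogenic adipocytes and not at macrophages. WT mice were ATF4 fl/fl mice without the cre transgene, so every mouse had the floxed alleles. In the study's cold experiments mice were first held at 30 °C for 7 days, and all 5 libraries come from mice after the cold, with no warm control among them.

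Macrophages are phagocytes that live in every tissue, some seeded before birth and others renewed from blood monocytes. They depend on signals through the CSF1 receptor, and the transcription factor PU.1 (encoded by Spi1) sets much of their gene program. In adipose tissue they clear dead cells and lipid, and the markers followed here cover that work: surface receptors that recognise debris or hemoglobin complexes, lysosomal proteins, adhesion molecules and the lipid receptor Trem2. The markers are not all equally specific. Ptprc is found on all leukocytes, Itgam also on neutrophils and natural killer (NK) cells, and Mrc1 also on some endothelial cells. In RNA from whole tissue, fewer macrophages and less RNA of these genes per macrophage cannot be told apart.

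Libraries held between 24698337 and 32452751 estimated counts. Levels between mice are given as CPM (counts scaled to a common library size, here with TMM), and levels between genes as TPM, which also take transcript length into account. Atf4, the deleted gene, stood at 32.6, 52.6 and 23.5 CPM in ATF4 BKO replicates 1, 2 and 3 and at 286 and 226 CPM in WT replicates 1 and 2, so each library matched its genotype label. Its log2 fold change (ATF4 BKO over WT) was -2.82 (SE 0.34), with an edgeR adjusted p of 0.671 and a DESeq2 adjusted p of 9.72e-12. ATF4 BKO replicate 1 had 4598 counts of Xist, a transcript of female cells, against at most 7 in the others, although all mice are labelled male. Sample names carry 1 of 2 prefixes of unstated meaning, where WT replicate 1 shares the first with ATF4 BKO replicates 1 and 2 and WT replicate 2 shares the second with ATF4 BKO replicate 3. A pair of libraries stands apart: WT replicate 1 was low in many leukocyte genes, and WT replicate 2 was high in skeletal muscle genes (20 markers summing to 2770.0 CPM, against 97.6 to 265 CPM in the other mice).

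No macrophage marker passed the test between ATF4 BKO and WT mice, while mice of the same genotype differed by up to 9.78-fold. All 10 had at least 10 counts in at least 2 libraries and were tested. Of these, 0 of 10 were called by edgeR (adjusted p between 0.942 and 0.974) and 0 of 10 by DESeq2 (adjusted p of 0.9999 for each), and 0 of 10 had an unadjusted p under 0.05 in either. Over all 16450 genes tested, edgeR called 1 gene (0.00608%) and DESeq2 called 121 (0.736%), the share against which a count of 0 among 10 genes is to be read. All 10 log2 fold changes were above 0, between 0.25 and 0.63, with a median of 0.42 beside 0.0077 over all genes tested. For none of the 10 did the genotypes separate: every ATF4 BKO mouse lay above both WT mice for 0 of 10 markers (8.95% of all genes tested) and below both for 0 of 10 (10.6%). The fold changes rest on 2 WT mice that lie far apart, and the 10 values share the same 5 mice, so they are not 10 separate observations.

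**Figure D1:**
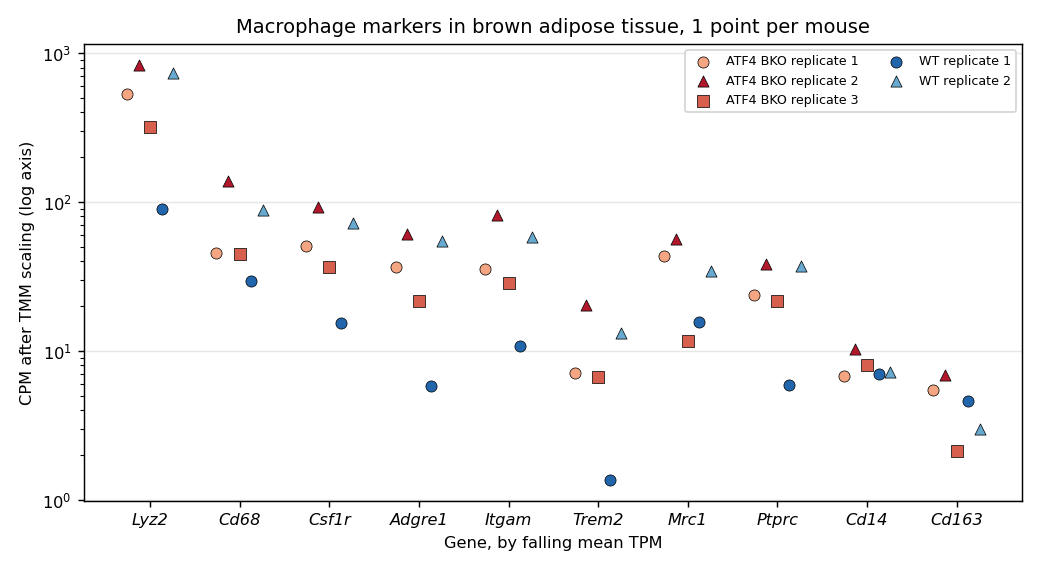
CPM of each macrophage marker (log axis) in the 3 ATF4 BKO mice (red shades) and the 2 WT mice (blue shades), 1 point per mouse, with genes ordered by mean TPM. ATF4 BKO replicate 2 (dark red triangles) is the highest point for all 10 genes, and WT replicate 1 (dark blue circles) is the lowest for 7.

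Among the lineage and receptor genes, Adgre1 had the widest range, at 10.6-fold between the highest and the lowest mouse. Adgre1 (ENSMUSG00000004730, chromosome 17, 57358691 to 57483527 of GRCm38, plus strand) encodes F4/80, the classical surface marker of mouse macrophages. It stood at 36.4, 61.5 and 21.7 CPM in ATF4 BKO replicates 1, 2 and 3 and at 5.82 and 54.4 CPM in WT replicates 1 and 2. The WT mice thus bracketed 2 of the 3 ATF4 BKO mice, and group means were 39.9 ± 20.1 CPM (SD, n = 3) and 30.1 ± 34.3 CPM (SD, n = 2). Its log2 fold change was 0.41 (SE 0.88, 95% interval -1.74 to 2.55). Csf1r (chromosome 18, 61100598 to 61132149, plus strand) encodes the receptor for CSF1 and IL-34, on which macrophage survival depends. It measured 50.3, 92.0 and 36.8 CPM in the ATF4 BKO mice and 15.3 and 72.4 CPM in the WT mice, the same ranking as Adgre1 over a narrower range (log2 fold change 0.44, SE 0.68). Ptprc (chromosome 1, 138062861 to 138175708, minus strand), the phosphatase CD45 of all leukocytes, measured 23.6, 38.3 and 21.6 CPM against 5.95 and 37.2 CPM (log2 fold change 0.37, SE 0.71). For Ptprc the ATF4 BKO mice stayed within 1.77-fold of each other, and WT replicate 2 came close to the highest of them. Itgam (chromosome 7, 128062640 to 128118491, plus strand) encodes the integrin CD11b, which binds complement-coated particles. Its levels were 35.7, 82.0 and 28.4 CPM against 10.9 and 58.6 CPM (log2 fold change 0.49, SE 0.76), again with both WT mice inside or below the ATF4 BKO range.

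Lysosomal and secreted products and the lipid receptor followed the same ranking. Lyz2 (chromosome 10, 117277331 to 117282321, minus strand) encodes lysozyme M, a secreted enzyme that cuts bacterial cell walls, and was the most abundant of the 10. It measured 531, 835 and 319.9 CPM in ATF4 BKO replicates 1, 2 and 3 and 89.3 and 739 CPM in WT replicates 1 and 2 (means 562 ± 259 CPM, SD, n = 3, and 414 ± 460 CPM, SD, n = 2). The WT mice differed 8.28-fold for Lyz2 and the ATF4 BKO mice by at most 2.61-fold. Cd68 (chromosome 11, 69664213 to 69666153, minus strand), a glycoprotein of the lysosome and late endosome, measured 45.3, 138 and 44.9 CPM against 29.7 and 88.6 CPM (log2 fold change 0.36, SE 0.66). ATF4 BKO replicates 1 and 3 were nearly level for Cd68, and replicate 2 was about as far above them as WT replicate 2 was above WT replicate 1 (3.07-fold between the highest and lowest ATF4 BKO mouse, 2.98-fold between the WT mice). Trem2 (chromosome 17, 48346401 to 48354147, plus strand), a receptor for lipids and lipoproteins on macrophages that take up lipid, had the widest range of all. It measured 7.11, 20.3 and 6.70 CPM against 1.36 and 13.3 CPM, which is 14.9-fold between the highest and the lowest mouse. Its log2 fold change, 0.63 (SE 0.94), was the largest of the 10 and also had the widest 95% interval (-1.67 to 2.93).

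Mrc1, Cd163 and Cd14 departed from that ranking. Mrc1 (chromosome 2, 14229392 to 14332057, plus strand), the mannose receptor CD206, measured 43.4, 56.3 and 11.7 CPM in the ATF4 BKO mice and 15.5 and 34.5 CPM in the WT mice (log2 fold change 0.57, SE 0.67). Here ATF4 BKO replicate 3 was the lowest mouse and WT replicate 1 the next. Cd163 (chromosome 6, 124304656 to 124330527, plus strand), the scavenger receptor for hemoglobin bound to haptoglobin, measured 5.43, 6.87 and 2.12 CPM against 4.62 and 3.01 CPM (log2 fold change 0.33, SE 0.52). WT replicate 1 exceeded WT replicate 2 for Cd163 alone among the 10 markers (a ratio of 0.651 of WT replicate 2 to WT replicate 1), on 146 and 102 counts. Cd14 (chromosome 18, 36725067 to 36726798, minus strand), the co-receptor of TLR4 for bacterial lipopolysaccharide, was nearly level, at 6.85, 10.3 and 8.05 CPM against 6.96 and 7.23 CPM. Group means for Cd14 were 8.40 ± 1.77 CPM (SD, n = 3) and 7.09 ± 0.188 CPM (SD, n = 2), and its log2 fold change of 0.25 (SE 0.24) had the narrowest 95% interval of the 10, from -0.33 to 0.82. All 5 libraries held between 155 and 290 counts of Cd14.

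Per length, the markers spanned a wide scale of abundance. Lyz2 had a mean of 525 TPM over the 5 mice (97.0 to 885 TPM), Cd68 a mean of 86.3 TPM (41.95 to 171 TPM) and Csf1r a mean of 16.8 TPM (5.70 to 29.4 TPM). These 3 led the list in that order in every ATF4 BKO mouse and in WT replicate 2. In WT replicate 1 Cd14 came above Csf1r, at 6.20 TPM against 5.70 TPM for Csf1r. Below them lay Adgre1 (mean 14.4 TPM), Itgam (11.5 TPM), Trem2 (10.9 TPM), Mrc1 (7.59 TPM), Ptprc (6.81 TPM) and Cd14 (6.52 TPM). Neighbours in this middle stretch could not be placed reliably: Itgam exceeded Trem2, Trem2 exceeded Mrc1, Mrc1 exceeded Ptprc and Ptprc exceeded Cd14 in only 3 of 5 mice each. Cd163 was the lowest on average (1.39 TPM, 0.624 to 2.15 TPM) and lay under Cd14 in 5 of 5 mice. In WT replicate 1 the lowest marker was Trem2 (1.42 TPM), just under Cd163 (1.49 TPM).

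The ranking of mice was shared by most markers. For 7 of 10 (Adgre1, Cd68, Csf1r, Lyz2, Itgam, Ptprc and Trem2) the mice ranked from ATF4 BKO replicate 2 through WT replicate 2, then ATF4 BKO replicates 1 and 3 in that order, down to WT replicate 1. That ranking was picked as the commonest among the markers themselves. Its share over all genes tested (578 of 16450, 3.51%) is therefore no test of the markers. ATF4 BKO replicate 2 was highest for 10 of 10 markers, against 26.3% of all genes tested, and WT replicate 1 lowest for 7 of 10, against 25.4%. WT replicate 2 exceeded WT replicate 1 by 9.34-fold for Adgre1, 9.78-fold for Trem2, 6.26-fold for Ptprc, 5.39-fold for Itgam, 4.72-fold for Csf1r and 2.22-fold for Mrc1. The median log2 difference between the WT mice over the 10 markers was 2.33, and 2.55% of all genes tested differed between them by at least as much in either direction. Because the list was chosen with earlier results of these data known, these shares over all genes give a scale and test nothing. All 10 markers were measured in the same 5 libraries, so this order describes these mice and carries no p-value.

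The direction depended on which mice were compared. Without WT replicate 1, the log2 fold changes had a median of -0.25 and were below 0 for 7 of 10 markers. Without WT replicate 2 the median was 2.04, with 10 of 10 above 0 (lowest edgeR adjusted p 0.190). Leaving out ATF4 BKO replicate 2 gave a median of 0.0049, with 5 above and 5 below 0, while leaving out ATF4 BKO replicate 1, the library with Xist, gave 0.47. Within the first name prefix, ATF4 BKO replicates 1 and 2 exceeded WT replicate 1 for 10 of 10 markers on average (median log2 difference 2.23), and within the second prefix ATF4 BKO replicate 3 lay under WT replicate 2 for 9 of 10 (median -0.98). Each prefix holds just 1 WT mouse, so prefix and WT mouse cannot be told apart. Cd14 was the exception, with log2 differences of 0.27 and 0.15 within the prefixes.

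**Figure D2:**
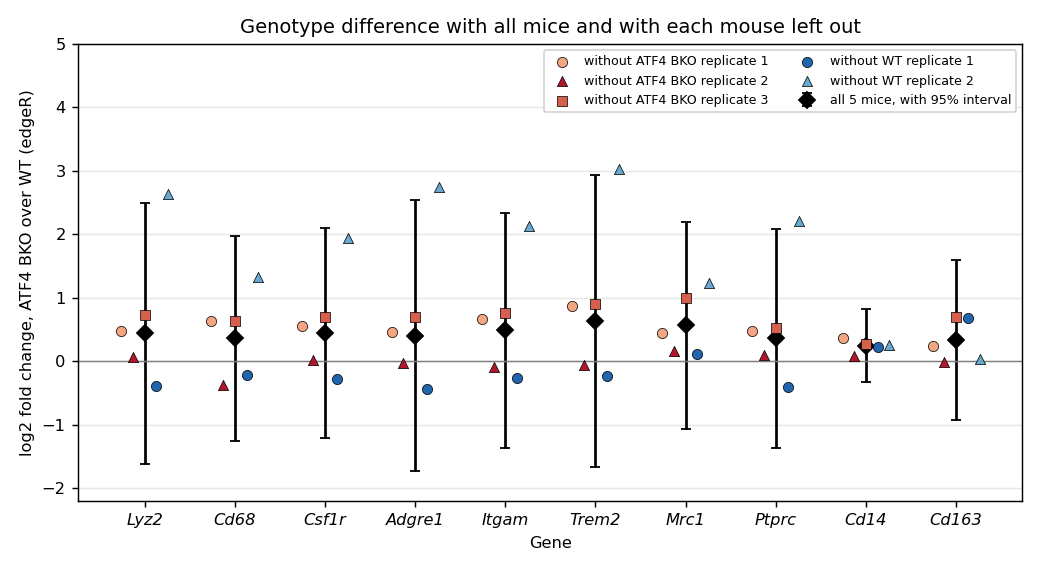
Log2 fold change of each macrophage marker (ATF4 BKO over WT, edgeR) with all 5 mice (black diamonds, bars are 95% intervals) and with each mouse left out in turn (coloured points). All 10 intervals span 0, and the estimate without WT replicate 2 is the highest for 8 genes, while the one without WT replicate 1 is below 0 for 7.

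Ratios within a library show which markers moved together from mouse to mouse. Lyz2 TPM was 37.0, 35.2 and 39.9 times Adgre1 TPM in ATF4 BKO replicates 1, 2 and 3 and 40.3 and 36.0 times in WT replicates 1 and 2. The ratio varied 1.14-fold, although Adgre1 TPM itself ran from 2.41 to 25.1. Trem2 (0.558 to 0.910 of Adgre1 TPM), Ptprc (0.409 to 0.748) and Itgam (0.626 to 1.23) also kept within 1.96-fold of their lowest ratio. Csf1r ran from 1.05 to 2.37 times Adgre1, and its highest ratio was in WT replicate 1. Cd68 was 17.4 times Adgre1 in WT replicate 1 and 3.70 to 6.81 times in the other mice. Mrc1 reached 1.63 times Adgre1 in WT replicate 1, against 0.332 to 0.708 in the others. Cd14 (2.58 against 0.280 to 0.807) and Cd163 (0.620 against 0.0465 to 0.121) had the largest spread of ratios, so WT replicate 1 was poor in Adgre1, Lyz2, Trem2 and Ptprc transcripts in particular, and not to the same degree in Cd68, Mrc1, Cd14 and Cd163.

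**Figure D3:**
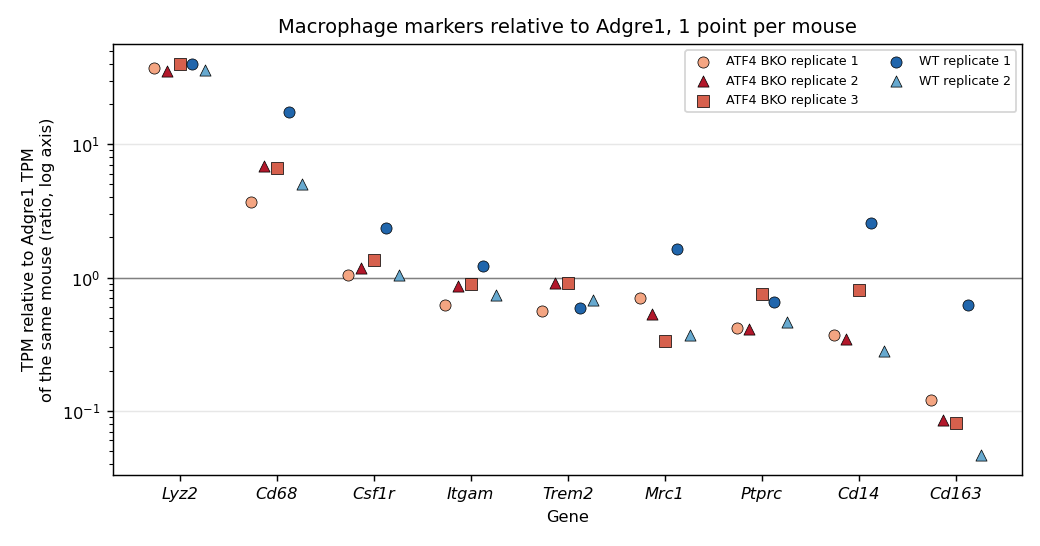
TPM of each of the other 9 macrophage markers divided by Adgre1 TPM of the same mouse (log axis), 1 point per mouse, with ATF4 BKO in red shades and WT in blue shades. Lyz2 lies between 35.2 and 40.3 in all 5 mice, while for Cd68, Mrc1, Cd14 and Cd163 WT replicate 1 (dark blue circles) stands above the other mice.

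Some reads cannot be assigned with certainty. Of the 31-base words in Lyz2 transcripts, 32.8% also occur in its neighbour Lyz1, which encodes lysozyme P. Lyz1 measured 9.14, 9.25 and 3.16 CPM in the ATF4 BKO mice and 2.78 and 5.49 CPM in the WT mice, far below Lyz2. Of the words in Itgam transcripts, 67.2% also occur in the read-through gene Gm49368, which was given at most 13 counts in any library. Adding those counts to Itgam left its log2 fold change at 0.49. For the other 8 markers at most 0.565% of words were shared with another gene.

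The stretch of DNA before a gene's start is where PU.1 often binds in myeloid genes, at sites built around the letters GAGGAA. The RefSeq promoter table for GRCm38.p6 holds the 250 bases before the start for 7 of the 10 markers, in 8 windows. Searched on both strands (GAGGAA or TTCCTC), 5 of the 8 windows held at least 1 match, beside 23.3% of all 32851 windows in the table. Mrc1 had 3 matches and Itgam 2, where 3.54% of all windows had at least 2. Lyz2 and Cd163 had 0. Shown are 4 windows, of which 2 were cut short where the gene in GENCODE begins before the RefSeq start (to 201 bases for Lyz2 and 228 for Mrc1), 5′ to 3′ on the gene's strand and in lower case with matches in capitals: Itgam and Lyz2 belong to the markers with the shared order of mice, and Mrc1 and Cd163 do not. They end at or just before the start of the gene in GENCODE, at chr7:128062390-128062639 (plus strand) for Itgam, chr10:117282322-117282522 (minus strand) for Lyz2, chr2:14229164-14229391 (plus strand) for Mrc1 and chr6:124304401-124304650 (plus strand) for Cd163.
Itgam: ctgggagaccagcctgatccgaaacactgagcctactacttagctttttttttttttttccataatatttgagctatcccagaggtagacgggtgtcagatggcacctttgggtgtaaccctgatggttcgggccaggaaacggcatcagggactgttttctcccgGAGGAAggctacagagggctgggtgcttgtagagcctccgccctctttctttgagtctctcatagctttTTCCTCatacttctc
Lyz2: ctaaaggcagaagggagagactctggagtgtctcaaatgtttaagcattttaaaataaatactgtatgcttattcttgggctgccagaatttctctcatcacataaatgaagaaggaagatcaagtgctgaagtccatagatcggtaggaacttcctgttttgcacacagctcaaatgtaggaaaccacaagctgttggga
Mrc1: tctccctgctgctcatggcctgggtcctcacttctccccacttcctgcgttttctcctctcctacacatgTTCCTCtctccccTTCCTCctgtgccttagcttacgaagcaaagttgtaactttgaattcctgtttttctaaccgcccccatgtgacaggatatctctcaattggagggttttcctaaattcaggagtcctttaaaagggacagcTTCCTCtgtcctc
Cd163: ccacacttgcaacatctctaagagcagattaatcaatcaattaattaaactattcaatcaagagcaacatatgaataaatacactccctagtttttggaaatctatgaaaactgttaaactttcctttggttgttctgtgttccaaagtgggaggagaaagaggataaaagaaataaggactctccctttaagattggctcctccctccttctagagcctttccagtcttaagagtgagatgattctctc
Within each pair 1 window has matches and the other has 0. A match is a string of letters and not a binding site, and their absence from these windows says nothing about PU.1 elsewhere.

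The genes most like the markers were found by the root mean square (RMS) difference, over the 5 mice, between a gene's log2 CPM centred on its own mean and the mean centred profile of the 10 markers. Among 8724 non-member genes with a mean of at least 10 CPM, the 5 closest were Rab3il1 (RMS 0.073), Emb (0.1004), Ctsh (0.112), Fcer1g (0.116) and Irf5 (0.123). Rab3il1 measured 10.95, 18.8 and 8.21 CPM in the ATF4 BKO mice and 3.70 and 13.7 CPM in the WT mice. Ctsh, which encodes the lysosomal protease cathepsin H, measured 41.6, 71.2 and 28.8 CPM against 13.6 and 62.8 CPM. Both have the order of mice that the 7 markers share. Among the markers themselves, Csf1r was closest to the mean profile (RMS 0.115) and Cd163 (0.862) and Cd14 (0.712) were farthest.

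Genes of the CSF1 receptor pathway and of myeloid transcription gave 12 tested genes, of which edgeR and DESeq2 called 0, with a median log2 fold change of 0.52. Spi1 (PU.1) measured 8.96, 20.6 and 9.12 CPM in the ATF4 BKO mice and 3.42 and 14.4 CPM in the WT mice, and Irf8, a partner of PU.1 in monocytes and macrophages, 12.5, 28.1 and 14.0 CPM against 3.39 and 23.0 CPM. Both were highest in ATF4 BKO replicate 2 and lowest in WT replicate 1, as 7 of the 10 markers were. Cebpb (a factor active in many cell types) ran from 55.2 to 78.8 CPM and Csf2rb (the shared receptor chain for GM-CSF, IL-3 and IL-5) from 35.2 to 103 CPM, both lowest in WT replicate 1. The ligand Csf1 went the other way between the WT mice, at 61.0 CPM in WT replicate 1 and 27.3 CPM in WT replicate 2, against 27.6, 29.5 and 23.4 CPM in the ATF4 BKO mice. The mouse lowest in Csf1r was therefore the highest in Csf1 (log2 fold change -0.72, SE 0.33, edgeR adjusted p 0.911). Il34, the other ligand, measured 4.90, 8.68 and 5.08 CPM in the ATF4 BKO mice and 3.39 and 4.57 CPM in the WT mice. It was the 1 gene of the 12 tested whose groups did not overlap. Over all genes tested, every ATF4 BKO mouse lay above both WT mice for 8.95% and below both for 10.6%.

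The complement C1q and Fc receptor genes, which macrophages use to recognise coated particles, behaved most like the markers. Of 14 tested, 0 were called, the median log2 fold change was 0.39, all 14 were lowest in WT replicate 1 and 12 had the order of mice of the 7 markers. Tyrobp, the signalling adaptor of Trem2, measured 22.6, 51.0 and 17.0 CPM in the ATF4 BKO mice and 6.46 and 35.3 CPM in the WT mice. C1qb, a chain of complement C1q, measured 51.5, 91.1 and 26.8 CPM against 15.6 and 68.2 CPM, and Fcer1g, the signalling chain of Fc receptors, 21.3, 37.3 and 12.4 CPM against 6.39 and 28.9 CPM. The same mice were high and low for all 3.

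Tissue-resident and scavenger genes (18 tested, 0 called, median log2 fold change 0.19) had 2 different lowest mice: WT replicate 1 for 11 of the 18, and for the other 7 ATF4 BKO replicate 3, which was also lowest for Mrc1 and Cd163. Stab1, a scavenger receptor also found on sinusoidal endothelium, measured 114, 199.997 and 111 CPM in the ATF4 BKO mice and 57.7 and 159 CPM in the WT mice. Pf4, a chemokine of platelets and resident macrophages, was low in both of these mice, at 20.2, 28.1 and 6.50 CPM against 6.04 and 13.7 CPM. Lyve1, a hyaluronan receptor of perivascular macrophages and lymphatic endothelium, was lowest in ATF4 BKO replicate 3, at 5.74, 6.02 and 1.38 CPM against 4.81 and 2.39 CPM. Gas6, a ligand that bridges dying cells to the receptors Axl and Mertk, was highest in WT replicate 1, at 33.4, 57.2 and 23.1 CPM against 77.7 and 37.0 CPM.

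Lipid-associated and lysosomal genes (20 tested, 0 called, median log2 fold change 0.33) included some with little spread between mice and some with a wide one. Plin2, the lipid droplet coat protein that adipocytes also make, and the cathepsins Ctsd and Ctsb were the most abundant and varied little: Plin2 ran from 1619.8 to 2361 CPM, Ctsd from 1576 to 2241 CPM and Ctsb from 1448 to 2453 CPM. Ctss, the cathepsin of antigen-presenting cells, varied as Adgre1 did, at 139, 309.8 and 104 CPM in the ATF4 BKO mice and 17.2 and 244 CPM in the WT mice. Gpnmb, a glycoprotein of lipid-laden macrophages, measured 109, 534 and 158 CPM against 60.0 and 259 CPM. Lgals3, which encodes galectin-3, was out of step, with its highest level in WT replicate 1 (139, 513 and 171 CPM against 675 and 253 CPM).

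Monocyte genes and chemokines (18 tested, 0 called, median log2 fold change 0.098) were led by Ccl6, Cxcl12 and Ccl9. Ccl6, a myeloid chemokine, measured 71.7, 139.9 and 43.2 CPM in the ATF4 BKO mice and 22.7 and 72.7 CPM in the WT mice, and Ccl9 51.7, 126 and 34.5 CPM against 16.4 and 63.9 CPM. Both followed the order of the 7 markers. Cxcl12, made mainly by stromal cells, measured 370, 373 and 334 CPM against 206 and 305 CPM and did not overlap between genotypes (log2 fold change 0.49, SE 0.20, edgeR adjusted p 0.911). Of the 18 genes, every ATF4 BKO mouse lay above both WT mice for 1 (8.95% of all genes tested) and below both for 1 (10.6%). Inflammatory and alternative activation genes (15 tested, 0 called, median log2 fold change 0.15) had 7 genes lowest in WT replicate 1, 10 highest in ATF4 BKO replicate 2 and 5 with the order of mice of the 7 markers. Among them Nfkbia, an inhibitor of NF-kB, ran from 32.4 to 65.5 CPM and Stat6, the factor downstream of IL-4, from 93.7 to 113 CPM. Retnla, a marker of alternative activation, reached 21.4 CPM in ATF4 BKO replicate 1 and lay between 0.875 and 5.20 CPM in the other mice.

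Markers of some other leukocytes were also low in WT replicate 1. The 16 markers of T and NK cells summed to 9.23, 8.15 and 10.03 CPM in the ATF4 BKO mice and to 3.42 and 11.9 CPM in the WT mice, with 15 of 16 lowest in WT replicate 1. For T and NK cells ATF4 BKO replicate 2 was not the highest mouse, unlike for the macrophage markers, which summed to 785, 1340.4 and 502 CPM against 185 and 1109 CPM. Dendritic cell markers summed to between 55.4 and 61.4 CPM in the other 4 mice and to 35.4 CPM in WT replicate 1, where 8 of 10 were lowest. B cell markers (10 listed, 8 tested) summed to between 8.58 CPM in WT replicate 1 and 23.8 CPM in WT replicate 2. Neutrophil markers summed to between 14.4 and 20.4 CPM and did not follow the pattern, with 2 of 7 tested lowest in WT replicate 1. Mast cell and eosinophil markers did not follow it either. Of the 5 tested, 0 were lowest in WT replicate 1 and 0 were lower there than in WT replicate 2. Neither edgeR nor DESeq2 called a gene on these lists. How far the number of other leukocytes bears on Ptprc and Itgam was not tested.

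**Figure D4:**
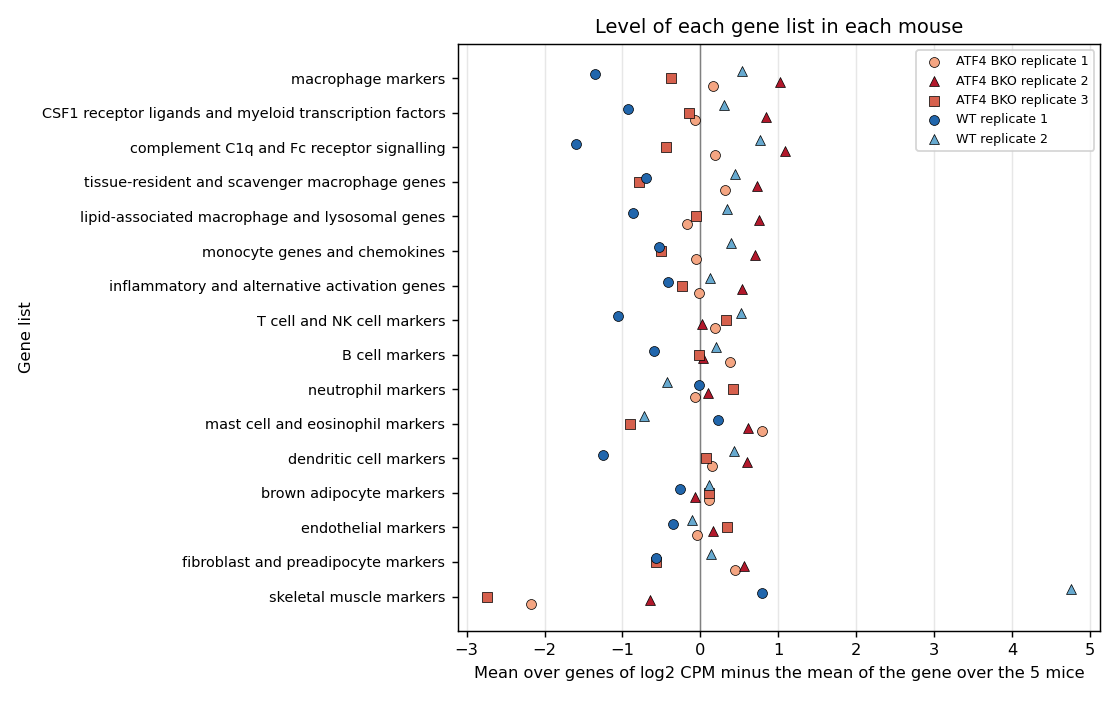
Mean over the tested genes of each list of log2 CPM minus the gene's mean over the 5 mice, 1 point per mouse, with ATF4 BKO in red shades and WT in blue shades. For macrophage markers the mice run from -1.35 (WT replicate 1) to 1.03 (ATF4 BKO replicate 2), for brown adipocyte markers from -0.26 to 0.12, and for skeletal muscle markers WT replicate 2 stands apart at 4.76.

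The 15 brown adipocyte markers summed to 25289, 21235 and 26814 CPM in the ATF4 BKO mice and to 20354 and 22808 CPM in the WT mice, and 0 were called. Ucp1, the uncoupling protein of brown fat, lay between 9762 and 13076 CPM, so the tissue label held in every library, and Fabp4 and Cox7a1 varied as little (6186 to 8745 CPM and 449 to 571 CPM). WT replicate 1 had the lowest sum and was lowest for 6 of these 15 genes, while ATF4 BKO replicate 2 was lowest for 7. WT replicate 1 was also lowest for 10 of 12 endothelial markers (25.4% of all genes tested). The endothelial markers summed to 1153 CPM in WT replicate 1 and to between 1353 and 1860 CPM in the other mice. The part of other cell types in the low macrophage markers of this mouse was not tested. Skeletal muscle genes were the 1 list with calls. DESeq2 called 10 of its 19 tested genes (0.736% of all genes tested), all lower in ATF4 BKO mice (Acta1, Tnnc2, Des, Tnni2, Mylpf, Casq1, Myh1, Myh2, Ryr1 and Ttn), while edgeR called 0. Every ATF4 BKO mouse lay below both WT mice for 17 of the 19 (10.6% of all genes tested). The median log2 fold change of the list was -6.34 with all mice and -2.10 without WT replicate 2. WT replicate 2 was highest for 19 of 19 of these genes. Among the macrophage markers it was highest for 0 of 10, and it came next after ATF4 BKO replicate 2 for the 7 with the shared order. Leaving the muscle genes out of the library totals left the median log2 fold change of the macrophage markers at 0.42. The muscle genes summed to at most 2770.0 CPM, so this check concerned scaling alone and had little room to move the median. Whether muscle in the tissue bears on the marker levels was not tested.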

How the data were processed

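BAT RNA of 3 ATF4 BKO and 2 WT mice was sequenced from stranded mRNA libraries. The authors counted reads per transcript with kallisto 0.45.0 (per the submitters' processing notes, which name mm10) and deposited estimated counts per transcript, not normalized between mice. TPM stand in the same deposited tables, scaled by the authors' counter for transcript length and total. Of 141450 transcripts, 138191 matched GENCODE M21 (GRCm38) and were summed into 52022 genes. The rest held at most 1.29% of the counts of a library.

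Summed counts were rounded and tested with edgeR 4.0.16 in R 4.3.3 (TMM, at least 10 counts in at least 2 libraries, quasi-likelihood test, Benjamini-Hochberg adjustment over 16450 genes, threshold 0.05), with genotype as the sole term. DESeq2 1.42.0, limma 3.58.1 on log2(TPM + 1) and log2(TPM + 0.1), other scalings and filters, length-scaled counts, blocks and leaving out each mouse were alternatives. An exact permutation test of 5 mice cannot go below p = 0.1 (one-sided). The fits were tested on simulated data.

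The 10 markers and the other gene lists were chosen with earlier results of these data known. From each other list the 3 tested genes with the highest mean TPM and any called gene are named. The lists of T and NK cell, B cell, dendritic cell and neutrophil markers are the exception and are given as sums and counts only. A gene that this rule selects is not reported here. Spi1, Irf8, Csf1, Il34, Lyve1, Ctss, Gpnmb and Lgals3 were chosen after their values were seen.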

Additional observations from a re-analysis of the deposited data

How the results depend on the processing

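The count of markers called was 0 in all 14 fits run beside the reported one, and the other results moved as follows. The count of genes called over the whole table was 1 with edgeR, 121 with DESeq2 (953 at an unadjusted p under 0.05), 8 with no filter beyond 1 count, 0 with limma on log2(TPM + 1) (1431 at an unadjusted p under 0.05), 2 on log2(TPM + 0.1), and 0 to 23 with a mouse left out, the 23 without WT replicate 1. The low counts without a call had 506 to 1101 genes at an unadjusted edgeR p under 0.05. The Atf4 log2 fold change passed the threshold with DESeq2 (-2.83) and with no filter beyond 1 count (-2.82), and ran from -3.18 to -2.58 with a mouse left out. The median log2 fold change of the 10 markers was 0.32 without TMM, with a median of -0.099 over all genes, and 0.44 and 0.51 with limma (-0.12 and -0.17 over all genes). It ran from -0.25 to 2.04 with a mouse left out and was 2.23 and -0.98 within the first and second name prefix. With a mouse left out, log2 fold changes ran from -0.44 to 2.75 for Adgre1, -0.37 to 1.33 for Cd68, -0.27 to 1.94 for Csf1r, -0.39 to 2.63 for Lyz2, -0.27 to 2.14 for Itgam, -0.41 to 2.21 for Ptprc, -0.23 to 3.03 for Trem2 and -0.0050 to 0.69 for Cd163, and stayed above 0 for Mrc1 and Cd14. The values below 0 came without WT replicate 1 or ATF4 BKO replicate 2. Of 84 medians of the other 6 myeloid lists under an alternative, 11 changed sign, 10 of them without one of these mice. Mice with the same replicate number share only that number (correlations of their deviations 0.047 and 0.20 over 2 pairs), and a replicate block on it left 0 calls (711 genes had an unadjusted edgeR p under 0.05, 5 of them markers) and a median of the markers of 1.05. Blocking on the name prefix also left 0 calls (876 genes with an unadjusted edgeR p under 0.05), with a median of 0.79. What depth limits was not tested, and the markers had between 43 (Trem2) and 25064 (Lyz2) counts in a library.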

Other observations

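Stromal genes had a low mouse in common with Mrc1, Cd163 and Lyve1. The 12 fibroblast and preadipocyte markers summed to 2798, 2635 and 1023 CPM in ATF4 BKO replicates 1, 2 and 3 and to 1101 and 1947 CPM in WT replicates 1 and 2, with 6 genes lowest in ATF4 BKO replicate 3 and 6 in WT replicate 1. Col3a1, a fibrillar collagen chain, measured 1248, 1053 and 325 CPM against 417 and 811 CPM, while Ly6a (82.6 to 145 CPM) and Dcn (79.8 to 197 CPM) were lowest in WT replicate 1. Mast cell and eosinophil markers were sparse (5 of 11 tested) and 4 of the 5 were lowest in ATF4 BKO replicate 3. Kit measured 11.04, 4.2 and 8.42 CPM against 4.65 and 4.04 CPM, Cpa3 ran from 1.41 to 2.39 CPM and Tpsb2 from 0.236 to 1.85 CPM.

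Endothelial markers had less spread between mice than the macrophage markers. The 12 genes summed to 1472, 1513 and 1860 CPM in the ATF4 BKO mice and to 1153 and 1353 CPM in the WT mice. Their log2 fold changes had a median of 0.39, and every ATF4 BKO mouse lay above both WT mice for 6 of the 12 (8.95% of all genes tested). Pecam1 measured 203, 237 and 249.5 CPM against 156 and 191 CPM (log2 fold change 0.40, SE 0.16, edgeR adjusted p 0.911), and the groups also did not overlap for Egfl7 (91.9 to 98.2 CPM against 82.0 to 90.5 CPM). Cdh5 overlapped (248 to 335 CPM against 209 and 264 CPM). None of the 12 passed the test in edgeR or DESeq2, and 3 had an unadjusted p under 0.05 in edgeR.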
